A study of Mus musculus with 12 samples.

Results

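Spleen type 2 conventional dendritic cells (cDC2) of myeloid origin were obtained along 2 routes, and the comparison of their transcriptomes is described here. The compared libraries were 3 of CDP-cDC2 and 3 of M-cDC2, that is 6 of the 12 libraries of the series, chosen by the group given in the labels and not by any measured value. CDP-cDC2 arose from common dendritic cell progenitors (CDPs) of wild-type CD45.2 mice, which had been injected into the marrow of B6.SJL recipients that carry CD45.1. M-cDC2 were the tdTomato-negative cDC2 of Il7r-Cre;Rosa26-lsl-tdTomato mice, which received no transferred cells. Both groups came from spleens taken 4 days after 5 mg/kg of lipopolysaccharide (LPS) was given into the peritoneum. Mice were 7 to 8 weeks old, and the protocol in the labels names only wild-type C57BL/6J animals. The other 6 libraries were CLP-cDC2, from transferred common lymphoid progenitors (CLPs), and L-cDC2, the tdTomato-positive cells of the reporter mice, after the same LPS treatment.

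The study set out mainly to compare CLP-cDC2 with L-cDC2, and the CDP-cDC2 and M-cDC2 groups were the myeloid counterparts in each system. The background of the reporter line, the sort markers and the number of animals behind a library are not stated in the labels. Replicates are therefore samples of a group, and their spread, on which every p-value rests, may be technical. Transfer, recipient mouse, mouse line and tdTomato sort changed together between the groups, so their contributions cannot be told apart.

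As background, cDC2 are antigen-presenting cells that take up antigen, display it on MHC class II and prime CD4 T cells. In the spleen they stand beside cDC1, which depend on Irf8 and Batf3 and cross-present antigen to CD8 T cells. CDPs are bone marrow cells committed to dendritic cell fates and give rise to both. In the reporter mice Cre is driven from Il7r, the gene of the interleukin-7 receptor chain that lymphoid progenitors express, and cells whose ancestors never expressed it stay without tdTomato. A tdTomato-negative cell is thus defined by the lack of a label, while a CDP-derived cell is defined by its donor marker.

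Values were analysed as log2(FPKM + 1), where FPKM is fragments per kilobase of gene and per 1000000 assigned fragments. Differences are CDP-cDC2 minus M-cDC2 on that scale, which understates the change of weakly expressed genes. A gene was called at a Benjamini-Hochberg adjusted p under 0.05 in limma, fitted to all 12 libraries. Adjusted p-values below come from that fit, except where a fit with libraries left out or another setting is named. Assigned reads, recovered from the steps of the deposited values, were 36547370, 56086703 and 40796692 in CDP-cDC2 replicates 1, 2 and 3 and 45085980, 49261940 and 50793194 in M-cDC2. Il7r itself stood at 1.16, 0.895 and 0.678 FPKM in CDP-cDC2 and at 0.837, 0.823 and 1.19 FPKM in M-cDC2, with overlapping groups.

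Distances between libraries of the compared groups overlapped those between CDP-cDC2 libraries and, in part, those between M-cDC2 libraries. The root mean square (RMS) difference over all 14538 tested genes ran from 0.395 to 0.745 log2 units across the 9 pairs of a CDP-cDC2 and an M-cDC2 library, with a median of 0.503. Between CDP-cDC2 libraries it ran from 0.368 to 0.576, with a median of 0.527. Between M-cDC2 libraries it ran from 0.287 to 0.462, with a median of 0.406. The 9 pairs of a CLP-cDC2 and an L-cDC2 library lay between 0.558 and 0.678. Averaged over replicates, CDP-cDC2 and M-cDC2 differed by an RMS of 0.384, against 0.424 to 0.516 for the other 5 pairs of groups. These distances are given as a description, since pairs share libraries.

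**Figure D1:**
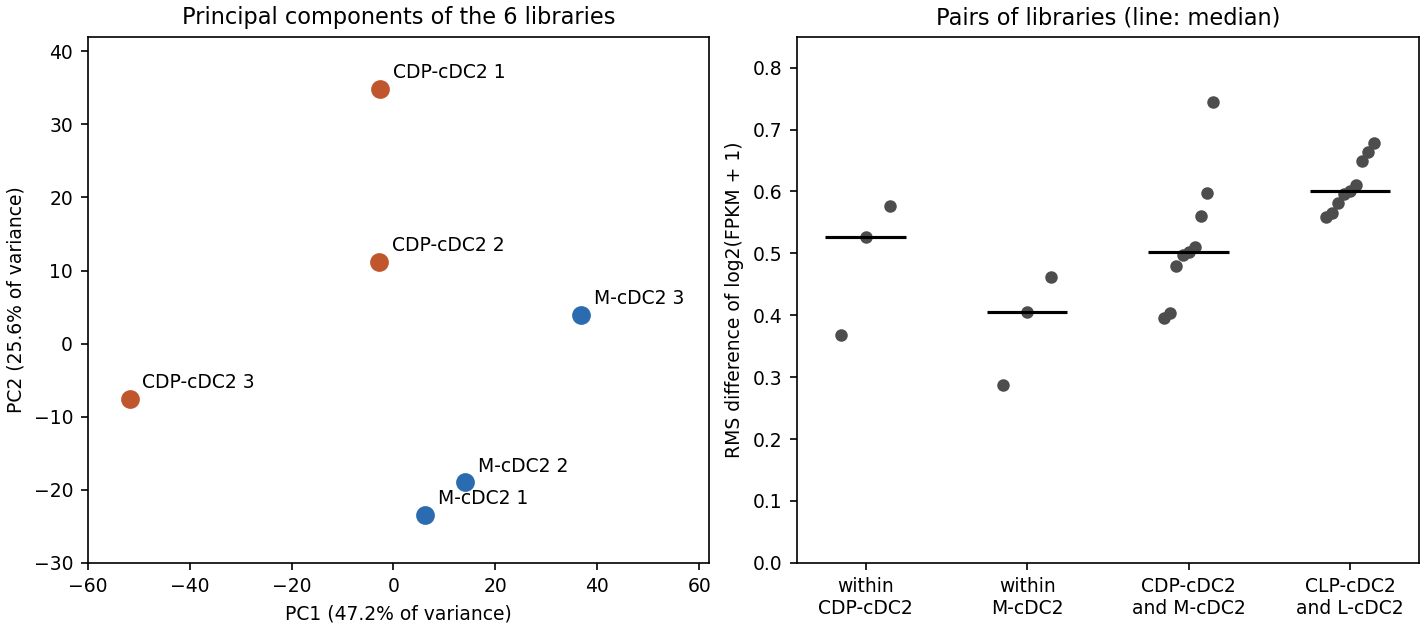
Left, the 6 libraries on the first and second principal components of log2(FPKM + 1), with the share of variance on each axis. Right, the RMS difference in log2(FPKM + 1) for each pair of libraries (points) and its median (line): pairs across the compared groups, with a median of 0.503, overlap pairs within CDP-cDC2, with a median of 0.527.

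The libraries numbered 3 stood apart from the rest. The first principal component of the 6 libraries took 47.2% of the variance and placed CDP-cDC2 replicate 3 at -51.7 and M-cDC2 replicate 3 at 36.8, with the other 4 libraries between -2.81 and 14.1. On the second component, with 25.6% of the variance, CDP-cDC2 replicates 1 and 2 lay at 34.9 and 11.2 and M-cDC2 replicates 1 and 2 at -23.4 and -19. The libraries numbered 3 had the reverse order there, with CDP-cDC2 at -7.55 and M-cDC2 at 3.98. Results that rest on these 2 libraries are given with and without them below.

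Of the 14538 genes, 375 were called (2.58%), 236 higher (1.62%) and 139 lower (0.956%) in CDP-cDC2. Among them 207 higher and 79 lower genes were protein-coding. A further measure asked how many genes were shown to be alike: for 11981 genes, or 82.4%, the 95% interval of the difference lay within 1 log2 unit of 0 on either side. That set includes 49 called genes. For 2231 genes neither statement held, so these were neither called nor bounded. The median difference over all tested genes was 0.02. All 375 called genes had non-overlapping groups of 3 and 3 libraries, as had 24.4% of all tested genes. Called genes with a difference over 1 numbered 82 higher and 69 lower. In the same fit, fewer genes were called between L-cDC2 and M-cDC2, 252 (1.73%), and 88.3% of genes had an interval within 1 log2 unit. By these measures M-cDC2 lay closer to L-cDC2 than to CDP-cDC2, unlike by the RMS of group averages.

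In called genes of both directions, replicate 3 of each group was often the extreme library. CDP-cDC2 replicate 3 was the highest of the 6 libraries in 65.3% of the called higher genes, against 27.4% of all tested genes. M-cDC2 replicate 3 was the lowest in 54.2% of them, against 28.3%. Among the called lower genes, CDP-cDC2 replicate 3 was the lowest in 70.5%, against 30.2% of all tested genes, and M-cDC2 replicate 3 the highest in 54.0%, against 18.8%. Called genes had non-overlapping groups, so only the 3 libraries of 1 group could be highest, and only those of the other lowest. Over all tested genes any of the 6 could be, so part of each excess was fixed by the call. Without both replicates 3, 38 genes were higher and 63 lower, of which 30 and 53 had been called with all libraries. With M-cDC2 replicate 1, 2 or 3 left out, higher genes numbered 70, 26 or 39 and lower genes 65, 48 or 75. With CDP-cDC2 replicate 1, 2 or 3 left out, they numbered 125, 419 or 80 and 117, 170 or 89. With L-cDC2 replicate 1, 2 or 3 left out, which enter only through the shared estimate of spread, higher genes numbered 116, 141 or 110. Calls that held in each of the 12 fits without 1 library numbered 22 higher and 45 lower. With only the 2 compared groups in the fit, 13 higher and 34 lower genes were called, of which 13 and 33 had been called with all 12 libraries. The balance of directions also moved: quantile normalization gave 134 higher and 132 lower genes, and no filter on low values gave 40 and 63.

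The called higher protein-coding genes had a median GC content of 54.6%, against 49.7% for all tested protein-coding genes and 51.4% for the called lower ones. With trends of GC content and length removed, and protein-coding genes alone in the fit, 512 were higher and 195 lower. That count held 195 of the 207 protein-coding genes called higher and 77 of the 79 called lower with all genes. Protein-coding genes alone, without that step, gave 461 higher and 155 lower.

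Genes that define cDC2 were expressed in both groups. Of 20 tested cDC2 genes, 2 were higher, 0 were lower and 18 were not called, against 1.62% of all tested genes called higher. An unadjusted limma p under 0.05 was found for 9 of the 20, against 2929 of all 14538 tested genes. An interval within 1 log2 unit was found for 11 of the 20, against 82.4% of all tested genes. The list's median difference was 0.18, against 0.02 over all tested genes. Irf4, the transcription factor required by many cDC2, stood at 5.2, 5.33 and 7.95 FPKM in CDP-cDC2 and at 4.37, 5.59 and 4.05 in M-cDC2, a difference of 0.33 with a 95% interval of -0.09 to 0.74. Sirpa, the CD172a receptor by which cDC2 are commonly sorted, stood at 79.4, 87.2 and 163 FPKM against 79.6, 71.1 and 57.9, a difference of 0.59 with an interval of 0.07 to 1.11 and an adjusted p of 0.197. The Sirpa groups overlapped, and the highest and the lowest value both came from a replicate 3. Clec4a4, the receptor DCIR2 of splenic cDC2, stood at 118, 157 and 122 FPKM against 173, 174 and 138, and its difference of -0.29 was not called. Itgam, the CD11b chain, stood at 17.2, 13.2 and 24.1 FPKM against 10.3, 10.1 and 7.98, with no overlap, and missed the threshold at an adjusted p of 0.064.

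The pair of cDC2 genes that passed were both higher in CDP-cDC2. Klf4, a zinc-finger transcription factor needed for a subset of cDC2, stood at 33, 26.3 and 29.2 FPKM in CDP-cDC2 against 13.4, 17.1 and 12.3 in M-cDC2, a difference of 1.01 ± 0.19 (SE, adjusted p = 0.018). Its groups were well apart, and its call was lost without CDP-cDC2 replicate 1 or M-cDC2 replicate 1 or 3 (largest adjusted p 0.0819). Clec4a1, a C-type lectin, stood at 56.2, 48.3 and 91.8 FPKM against 37.3, 36.2 and 26.7, a difference of 0.91 ± 0.22 (SE, adjusted p = 0.0497), and kept its call in only 1 of the 12 fits without 1 library. Of the 20 genes, 0 were called without both replicates 3, with only the 2 compared groups in the fit, or without CDP-cDC2 replicate 1, M-cDC2 replicate 1 or M-cDC2 replicate 3. Without CDP-cDC2 replicate 2 the count was 3 higher and 3 lower, and it was 1 higher without CDP-cDC2 replicate 3, M-cDC2 replicate 2, CLP-cDC2 replicate 1 or any L-cDC2 library. Genes of the Notch-dependent, ESAM-high cDC2 subset numbered 13 tested, of which limma called 0 and voom called 1 higher and 1 lower. An unadjusted limma p under 0.05 was found for 4 of the 13, against 2929 of all 14538 tested genes. Esam stood at 7.13, 17.2 and 7.99 FPKM against 16, 18.8 and 16.2, and its interval ran from -1.47 to 0.06.

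Genes common to conventional dendritic cells held 1 call. Of 19 tested, 0 were higher and 1 was lower (0.956% of all tested genes were lower), and 13 had an interval within 1 log2 unit. Flt3, the receptor whose ligand drives dendritic cell development, stood at 88.8, 121 and 94.2 FPKM against 101, 99.2 and 86.3, a difference of 0.08 with an interval of -0.19 to 0.35. Zbtb46, a transcription factor of the conventional lineage, had a difference of -0.10 with an interval of -0.52 to 0.31. The lower gene was Cd24a, a surface glycoprotein found at high level on cDC1, at 21.3, 17.8 and 8.3 FPKM against 39.1, 45.4 and 34. Its difference of -1.36 ± 0.30 (SE, adjusted p = 0.036) was lost when any 1 M-cDC2 library, CDP-cDC2 replicate 3 or L-cDC2 replicate 1 was left out (largest adjusted p 0.131).

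Marker lists of other cell types held genes near 0 beside genes at high level. Cd3e, which defines T cells, and Ncr1, which defines NK cells, were under 1 FPKM in all 6 libraries. Of the B cell markers, 5 of 15 were under 1 FPKM in all 6, as were 10 of 16 T cell, 9 of 16 NK cell, 8 of 14 plasma cell and 7 of 14 neutrophil markers. Other members of these lists were expressed in all 6 libraries: Ccl5, a chemokine on the NK list, at 205 to 334 FPKM, Klrd1, the CD94 receptor chain, at 56.3 to 142, Tbx21, the transcription factor T-bet, at 19.9 to 32.8 and Klrk1, the NKG2D receptor, at 5.65 to 11.2. On the T cell list Cd5, a surface glycoprotein, stood at 5.69 to 7.77 FPKM. On the B cell list Ighm, which dominates the sum of that list, stood at 323 to 393 FPKM, Cd79b at 28 to 46.2 and Cd22 at 25 to 41.6. Xbp1 on the plasma cell list stood at 50.7 to 63.3 FPKM. Summed over each list, B cell markers ran from 422 to 473 FPKM in CDP-cDC2 and from 466 to 494 in M-cDC2. T cell markers ran from 13.1 to 16.1 against 10.1 to 12.4. NK cell markers ran from 341 to 499 against 393 to 427, and plasma cell markers from 70.1 to 80.7 against 64.8 to 73.1. Neutrophil markers ran from 5.77 to 10.9 against 9.02 to 25.8, and plasmacytoid dendritic cell markers from 172 to 243 against 213 to 216. Erythroid and platelet markers ran from 28.1 to 138 against 46.4 to 61.6, with the highest sum in CDP-cDC2 replicate 2. Monocyte and inflammatory cDC2 markers ran from 2940 to 4090 against 3030 to 3300. In a bulk sample, fewer cells of a type and less RNA per cell cannot be told apart.

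The T cell sums did not overlap, nor did those of red pulp macrophage genes, at 160 to 183 FPKM in CDP-cDC2 against 134 to 146 in M-cDC2. Of the 17 macrophage genes, 7 were under 1 FPKM in all 6 libraries. Of 9 tested, limma called 0 and voom called 1 lower. An unadjusted limma p under 0.05 was found for 4 of the 9, against 2929 of all 14538 tested genes. The median difference of the 9 was 0.67, with 7 positive and 2 negative. Groups did not overlap in 6 of them, against 24.4% of all tested genes. C1qa, a chain of complement C1q, stood at 9.68, 5.25 and 7.75 FPKM against 1.54, 2.54 and 1.84, with no overlap and an adjusted p of 0.17. C1qb, another chain, stood at 53.6, 16.4 and 14.9 FPKM against 5.38, 5.91 and 7.47, also with no overlap. Spic, the transcription factor of red pulp macrophages, stood at 4.64, 4.95 and 3.43 FPKM against 1.77, 1.87 and 1.91. Trf, the iron carrier transferrin, went the other way, at 5.9, 13.1 and 9.68 FPKM against 20, 22.2 and 20.5, with no overlap and an adjusted p of 0.061. Apoe, apolipoprotein E, and Adgre1, the F4/80 antigen, had differences of 0.04 and -0.02. Cd5l, a secreted protein of these macrophages, was at or below 0.542 FPKM in every one of the 6 libraries. The part of such cells in the comparison was not tested.

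The lower genes were led by members of the major histocompatibility complex (MHC). H2-Ea encodes the alpha chain of the class II molecule I-E (ENSMUSG00000036322, chromosome 17 from 34560933 to 34563619, coordinates as deposited, build not given in the sources used here). The annotation types it as a polymorphic pseudogene, and mice of the H2b haplotype, C57BL/6 among them, are known not to make I-E alpha. It stood at 1.48, 0.628 and 0.662 FPKM in CDP-cDC2 and at 494, 509 and 460 FPKM in M-cDC2. Every M-cDC2 library was far above every CDP-cDC2 library, and the difference was -8.02 ± 0.16 (SE, adjusted p = 7.8e-12). CLP-cDC2 had 0.761 ± 0.175 (SD, n = 3) FPKM and L-cDC2 419 ± 22.9, so both reporter groups were high and both transfer groups low.

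Of 15 tested class II presentation genes, H2-Ea was the only one called, and 13 had an interval within 1 log2 unit. H2-Aa, the I-A alpha chain, averaged 3016 ± 383 (SD, n = 3) FPKM in CDP-cDC2 and 3067 ± 100.4 in M-cDC2, a difference of -0.03 with an interval of -0.31 to 0.25. H2-Ab1, its beta chain, averaged 10823 ± 444 against 9938 ± 989 FPKM. Cd74, the invariant chain that guides class II molecules to the endosome, averaged 12864 ± 2233 against 11660 ± 654 FPKM. These 3 genes were at high level in both groups and were not called.

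Class I genes of the Q region moved in both directions. Of 27 tested class I presentation genes, 2 were higher and 4 lower, with a median of -0.09, against 1.62% and 0.956% of all tested genes, and all 4 lower genes kept their call in each of the 12 fits without 1 library. With only the 2 compared groups in the fit, H2-Q10 alone of the 4 lost it. H2-Q2 (ENSMUSG00000091705, chromosome 17 from 35561218 to 35565738, as deposited) stood at 1.52, 1.67 and 1.2 FPKM in CDP-cDC2 and at 31.8, 36.7 and 38 in M-cDC2, a difference of -3.89 ± 0.13 (SE, adjusted p = 4.3e-09). H2-Q1 stood at 21.3, 25.8 and 17.4 FPKM against 57.8, 60.6 and 76.5, a difference of -1.56. H2-Q4 stood at 10.1, 9.58 and 7.41 FPKM against 19, 20.9 and 25.9, a difference of -1.19. These 3 genes, and H2-Q10 at a difference of -1.32, were low in each CDP-cDC2 library.

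The opposite held for a neighbouring pair. H2-Q6 stood at 82.9, 84.6 and 88.4 FPKM in CDP-cDC2 against 54.1, 53.3 and 60.5, a difference of 0.60 (adjusted p = 0.011). H2-Q7, which encodes the class Ib molecule Qa-2, stood at 60.8, 63.3 and 51.2 FPKM against 36.7, 35.9 and 42.5, a difference of 0.59 (adjusted p = 0.027). Of the 12 fits without 1 library, H2-Q6 kept its call in 10 and H2-Q7 in 8, and neither was called without M-cDC2 replicate 1, without M-cDC2 replicate 2 or with only the 2 compared groups in the fit. The classical genes H2-K1 and H2-D1 had differences of -0.28 and 0.40 and were not called, and B2m, the shared light chain, had 0.14. Transcripts of H2-Q6 and H2-Q7 were 94.7% identical over 1031 aligned bases, H2-Q4 and H2-Q6 92.5%, and H2-Q2 and H2-Q6 87.5%. Reads of such near-copies can be split or misplaced in counting, and the values of single H2-Q genes are uncertain for that reason.

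Upstream sequences of 5 of these genes are shown because the members that moved in opposite directions are neighbours with related promoters. Each is the 150 bases before the annotated start, from RefSeq with build GRCm38.p6, plus strand, at chr17:35439005-35439154 for H2-Q7, chr17:35424700-35424849 for H2-Q6, chr17:35379467-35379616 for H2-Q4, chr17:35342157-35342306 for H2-Q2 and chr17:35469939-35470088 for H2-Q10. Capitals mark bases within the aligned span that differ from H2-Q7 or have no H2-Q7 base opposite them. Annotated starts are offset between the genes, so only part of each window aligns.
H2-Q7: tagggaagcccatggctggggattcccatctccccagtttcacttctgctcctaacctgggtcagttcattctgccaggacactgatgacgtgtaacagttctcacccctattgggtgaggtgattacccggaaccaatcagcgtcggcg
H2-Q6: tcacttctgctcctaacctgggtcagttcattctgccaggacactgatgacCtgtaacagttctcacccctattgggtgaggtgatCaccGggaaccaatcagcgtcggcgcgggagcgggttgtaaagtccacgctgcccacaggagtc
H2-Q4: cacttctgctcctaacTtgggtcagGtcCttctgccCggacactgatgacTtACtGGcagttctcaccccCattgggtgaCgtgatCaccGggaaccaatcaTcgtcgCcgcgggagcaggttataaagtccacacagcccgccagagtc
H2-Q2: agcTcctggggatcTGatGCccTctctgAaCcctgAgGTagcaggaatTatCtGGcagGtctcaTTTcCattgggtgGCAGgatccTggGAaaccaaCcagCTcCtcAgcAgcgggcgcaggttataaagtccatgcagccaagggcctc
H2-Q10: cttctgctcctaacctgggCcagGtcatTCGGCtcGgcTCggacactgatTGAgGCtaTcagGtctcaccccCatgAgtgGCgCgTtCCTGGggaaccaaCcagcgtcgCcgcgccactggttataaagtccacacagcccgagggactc

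The H2-Q6 window was 97.3% identical to that of H2-Q7 over 111 aligned bases, and these are the genes that were higher in CDP-cDC2. The H2-Q4, H2-Q10 and H2-Q2 windows were 87.3%, 76.6% and 72.9% identical to it over 110, 107 and 107 aligned bases, and these genes were lower. H2-Q1, also lower, had no promoter entry and is not shown, and neither is H2-Q5, a polymorphic pseudogene called higher with a difference of 0.5. This is a description of 5 reference windows and not of the alleles carried by the mice. Whether promoter sequence bears on the direction of the differences was not tested.

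**Figure D2:**
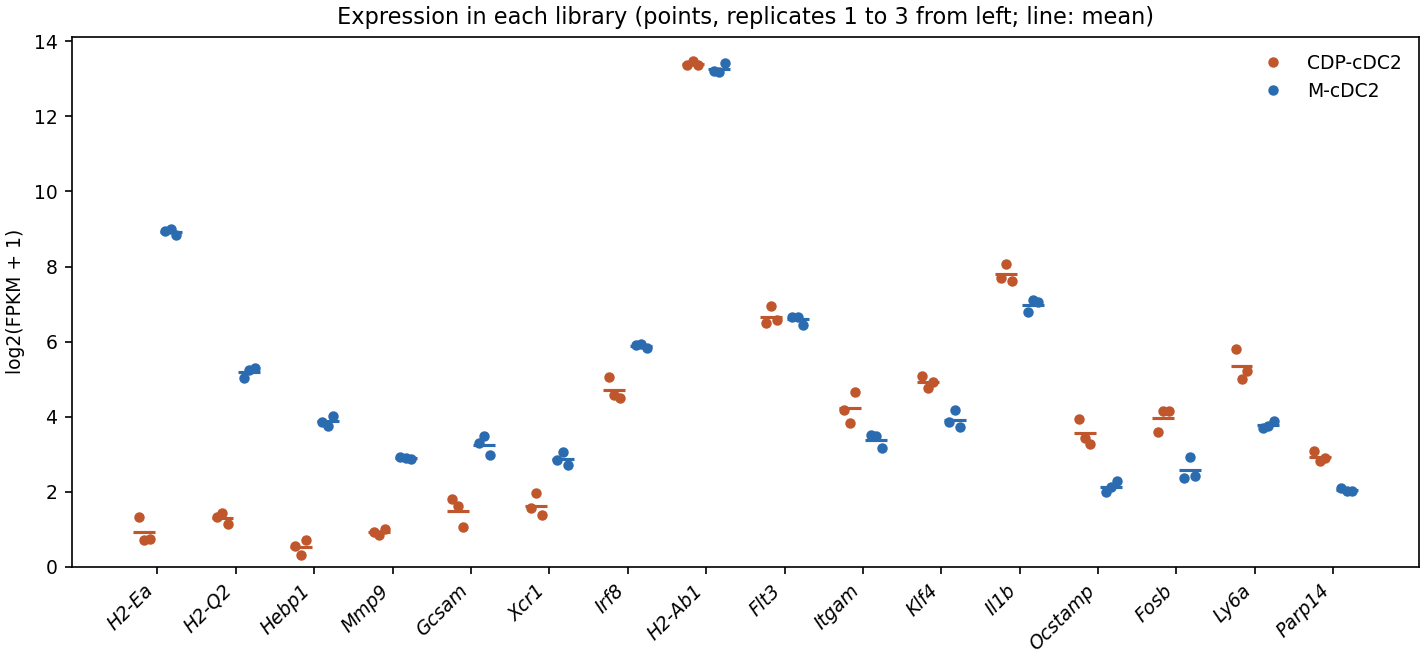
Log2(FPKM + 1) of 16 named genes in each of the 6 libraries, with CDP-cDC2 in orange and M-cDC2 in blue, points for replicates 1 to 3 from the left and a line for the mean. H2-Ea, H2-Q2 and Hebp1 sit near the bottom in CDP-cDC2 and far above it in M-cDC2, while H2-Ab1 and Flt3 are level.

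Called genes were dense around the MHC. Chromosome 17 held 47 called genes of 794 tested (5.92%, 23 higher and 24 lower), against 2.58% over all chromosomes, and chromosome 11 held 47 of 1184 (3.97%). In the interval of chromosome 17 from Glo1 to H2-M2 (30803910 to 37794443, as deposited), chosen after the values were seen, 31 of 226 tested genes were called (13.7%). Of these, 9 were higher and 22 lower, and 15 kept their call in each of the 12 fits without 1 library. Of the 22 lower genes, 21 were also lower in CLP-cDC2 than in L-cDC2. Within 20 Mb of Gt(ROSA)26Sor, the reporter locus on chromosome 6, 9 of 256 tested genes were called (3.52%), and within 20 Mb of Il7r on chromosome 15, 4 of 61 (6.56%). Strain background of the reporter line was not given, and its part in these values was not tested.

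**Figure D3:**
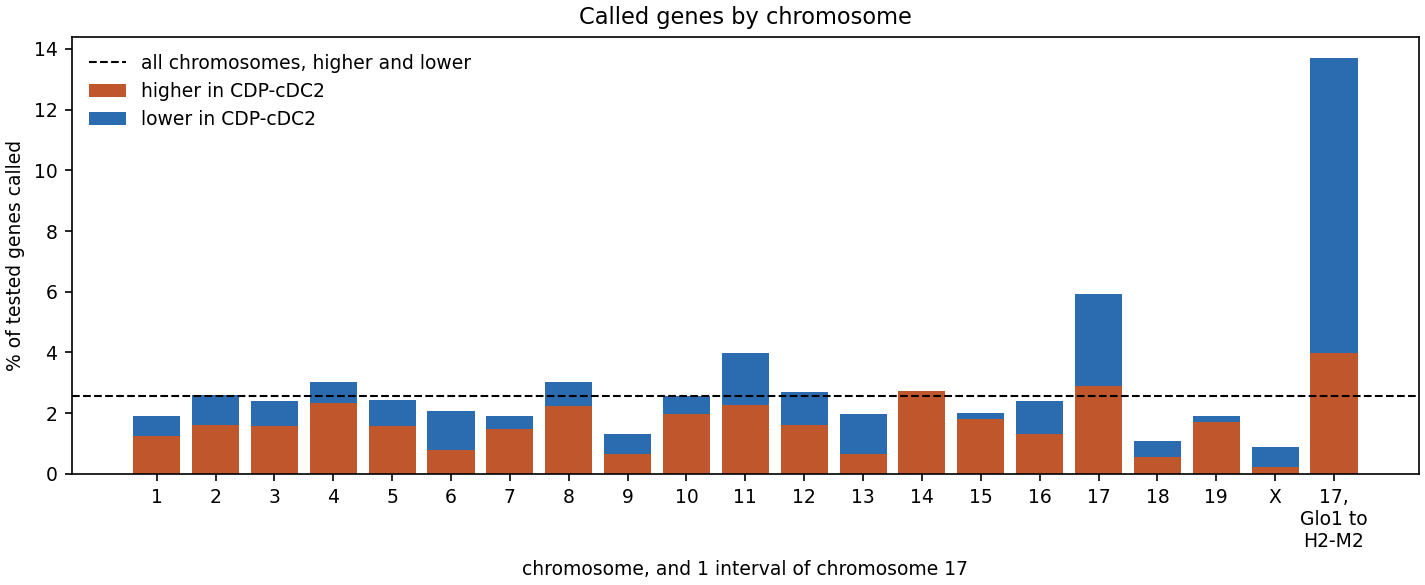
Percentage of tested genes called higher (orange) or lower (blue) in CDP-cDC2 on each chromosome with at least 100 tested genes, and in the Glo1 to H2-M2 interval of chromosome 17, with a dashed line at 2.58% for all tested genes. The interval, at 13.7%, stands above each whole chromosome shown, and most of its bar is lower genes.

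Other genes with large deficits in CDP-cDC2 lay outside the Glo1 to H2-M2 interval. One of them, Hebp1, is on the chromosome of the reporter locus, beyond the window counted above, which ended at 133054294. Hebp1, a heme-binding protein whose cleaved peptide attracts leukocytes (ENSMUSG00000042770, chromosome 6 from 135114520 to 135175020, as deposited), stood at 0.465, 0.243 and 0.641 FPKM against 13.5, 12.5 and 15.2, a difference of -3.35 ± 0.16 (SE, adjusted p = 1.4e-07). Mmp9, a secreted gelatinase abundant in neutrophils, stood at 0.897, 0.791 and 0.994 FPKM against 6.53, 6.43 and 6.33, a difference of -1.97 ± 0.15 (SE, adjusted p = 1.7e-05). Both genes were low in each CDP-cDC2 library and far higher in each M-cDC2 library. Beside Mmp9, the neutrophil alarmin S100a9 was at 0, 0 and 0.282 FPKM in CDP-cDC2 and at 0, 2.14 and 0 in M-cDC2. S100a8, Ngp and Camp of the same list passed 1 FPKM only in M-cDC2 replicate 2, at 6.61, 5.18 and 1.29. Csf3r, also on it, went the other way without overlap, at 5.99, 4.21 and 9.42 FPKM against 3.08, 2.06 and 2.13. Of 3 neutrophil genes tested, limma called 0 higher and 1 lower, and voom called 1 higher and 1 lower. The part of neutrophils in the Mmp9 difference was not tested. Fcer2a, the low-affinity IgE receptor of B cells, was low in both groups, at 0.142, 0.53 and 0.111 FPKM against 1.63, 2.12 and 2.25.

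Several called genes of small or repeated transcripts were near-copies of others. The small nucleolar RNA U3 stood at 9.3, 9.87 and 5.03 FPKM against 22.1, 23.4 and 28, and the spliceosomal RNA U4 at 30.4, 30.5 and 16.5 against 70.7, 62 and 91.3. Both have several genomic copies, so the locus of origin is uncertain. Among called lower genes, 17 were annotated copies of another gene, and 12 of these were at least 98% identical to the parent, while only 3 of the 17 had a parent that was itself called. Among called higher genes 7 were such copies, 4 of them at least 98% identical, and 0 had a called parent, with 2 parents that were not tested. Examples chosen after the values were seen are Rps18-ps6, with a difference of -2.90, 99.1% identity to the ribosomal protein gene Rps18 and a parent difference of -0.05, and Gm13394, with -1.63 against 0.03 for Gapdh at 99.9% identity. Gm15772 had a difference of -2.70 while Rpl26, its parent at 99.5% identity, was called higher. Rpl26, a protein of the large ribosomal subunit, stood at 310, 270 and 270 FPKM against 151, 160 and 191, a difference of 0.76 (adjusted p = 0.0065). Reads of copies this alike are hard to place, and these calls are uncertain as to the gene.

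Genes of cDC1 formed the cell-type list with the largest share of called members, all of them lower in CDP-cDC2. Of 14 tested, 0 were higher and 6 were lower, with a median of -0.60, against 0.956% of all tested genes called lower. Irf8, the transcription factor on which cDC1 depend (ENSMUSG00000041515, chromosome 8 from 121463097 to 121483433, as deposited), stood at 32.1, 23 and 21.4 FPKM in CDP-cDC2 and at 59.2, 59.7 and 56.1 in M-cDC2. Each CDP-cDC2 library was well below each M-cDC2 library, and the difference was -1.18 ± 0.21 (SE, adjusted p = 0.012). The Irf8 call was lost without M-cDC2 replicate 2 (adjusted p = 0.0603). Xcr1, the chemokine receptor that marks cDC1, stood at 1.92, 2.88 and 1.57 FPKM against 6.12, 7.25 and 5.51, a difference of -1.24 ± 0.18 (SE, adjusted p = 0.0043).

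Further cDC1 genes pointed the same way at other levels, but of the 14 tested 10 had a negative and 4 a positive difference. Gcsam, a signalling adaptor first described in germinal centre B cells, stood at 2.5, 2.04 and 1.07 FPKM against 8.82, 10.1 and 6.85, a difference of -1.76 ± 0.22 (SE, adjusted p = 0.0016). Cd36, a scavenger receptor, and Naaa, a lysosomal amidase, had differences of -1.10 and -1.05. Cd8a, the CD8 alpha chain, stood at 2.99, 6.43 and 2.07 FPKM against 12.2, 9.48 and 9.61, a difference of -1.34 (adjusted p = 0.034), and kept its call in 5 of the 12 fits without 1 library. Clec9a, the receptor for dead cells on cDC1, stood at 1.57, 2.39 and 1.12 FPKM against 4.13, 2.94 and 2.76, with no overlap but an adjusted p of 0.12. Batf3 and Id2, transcription factors that cDC1 require, had differences of -0.22 and 0.06 and were not called. Wdfy4, needed for cross-presentation, was higher without overlap, at 47.7, 35.6 and 70.5 FPKM against 31.7, 32 and 29.6. Its difference of 0.65 was not called. Cadm1, also on the list, was higher without overlap too, at 1.35, 1.16 and 0.964 FPKM against 0.75, 0.812 and 0.741.

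Xcr1 and Clec9a, which define cDC1, were low in both groups, and 0 of the 15 cDC1 genes were under 1 FPKM in all 6 libraries. Summed cDC1 markers ran from 441 to 673 FPKM in CDP-cDC2 and from 594 to 624 in M-cDC2, a sum that Id2 and Batf3 dominate. Of the 14 genes, 3 were lower without both replicates 3, with a median of -0.58, and 3 were lower without M-cDC2 replicate 2. The part of cDC1 in the sorted cells was not tested.

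DNA-sensor genes of the Ifi200 family showed 0 higher and 2 lower of 10 tested, against 0.956% of all tested genes called lower. Most members went the other way, with 7 positive and 3 negative differences and a list median of 0.22. With voom, 1 was called higher and 2 lower. Ifi205 stood at 20.8, 13.9 and 7.96 FPKM against 44.8, 42.1 and 31, a difference of -1.48 (adjusted p = 0.02). Ifi211 stood at 16.2, 10.7 and 8.58 FPKM against 29.2, 27.5 and 20.9, a difference of -1.09 (adjusted p = 0.039). Both genes had non-overlapping groups. The Ifi205 call was lost without M-cDC2 replicate 1 or 2 (largest adjusted p 0.0888), and Ifi211 kept its call in 4 of the 12 fits. Rab7b, a small GTPase of late endosomes, stood at 10.2, 8.44 and 4.86 FPKM against 19.8, 19.8 and 20.6, a difference of -1.30 (adjusted p = 0.015) that was lost when any 1 M-cDC2 library was left out (largest adjusted p 0.0642).

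Interferon-stimulated genes leaned upward in CDP-cDC2 by small amounts. Of 32 tested type I interferon genes, 6 were higher and 0 lower, against 1.62% of all tested genes called higher. A positive difference was found for 30 of the 32, against 52.3% of all tested genes, and the median was 0.41 against 0.02. Parp14, an ADP-ribosyltransferase, stood at 7.53, 6.01 and 6.38 FPKM against 3.29, 3.05 and 3.06, a difference of 0.88 ± 0.15 (SE, adjusted p = 0.011). Ifit1bl1, of the Ifit family of antiviral RNA-binding proteins, stood at 9.35, 8.81 and 11.5 FPKM against 3.97, 4.5 and 3.09, a difference of 1.17 ± 0.24 (SE, adjusted p = 0.029). Rtp4, a receptor transporter induced by interferon, stood at 51.5, 52.2 and 42.1 FPKM against 23.9, 22.8 and 24.3, a difference with a lower 95% bound of 0.51 (adjusted p = 0.041). In these 3 genes every CDP-cDC2 library was above every M-cDC2 library.

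Zbp1, a sensor of Z-form nucleic acids, Oasl2, of the oligoadenylate synthetase family, and Lgals3bp, a secreted glycoprotein, had differences of 0.67, 0.75 and 0.56. The calls were fragile: 0 of the 32 were called without both replicates 3, where the median was 0.40, and 0 without M-cDC2 replicate 2. The count was 1 when M-cDC2 replicate 1 or 3 or CDP-cDC2 replicate 1 or 3 was left out, 2 for CDP-cDC2 replicate 2 and for L-cDC2 replicate 3, and 3 for L-cDC2 replicate 2. With array weights 17 of 32 were higher, and 13 of 30 after trends with GC content and length were removed. Of 22 tested interferon-gamma response genes, 1 was higher, and the median was 0.38. That gene was Gbp2, a guanylate-binding GTPase, at 13.9, 9.71 and 12.5 FPKM against 7.03, 5.78 and 4.25, and it kept its call in 3 of the 12 fits without 1 library.

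The interferon-stimulated response element bound by ISGF3 and interferon regulatory factors was searched as GAAANNGAAA on both strands in the 250 bases before each RefSeq start. It was found in 936 of 27025 promoters (3.46%), in 312 of 8613 matched tested genes (3.62%) and in 9 of 22 matched genes of the interferon list (40.9%). Among the called members it was found in 1 of 3 matched, Ifit1bl1. The called higher and called lower genes as a whole held it in 4.82% (8 of 166) and 6.56% (4 of 61). The Ifit1bl1 window, minus strand, build GRCm38.p6, chr19:34601969-34602218, is shown as the one called interferon gene with a match, which lies on the reverse strand, starts 104 bases before the annotated start and is in capitals. A second RefSeq entry of the gene also had 1 match, 23 bases before its start.
Ifit1bl1: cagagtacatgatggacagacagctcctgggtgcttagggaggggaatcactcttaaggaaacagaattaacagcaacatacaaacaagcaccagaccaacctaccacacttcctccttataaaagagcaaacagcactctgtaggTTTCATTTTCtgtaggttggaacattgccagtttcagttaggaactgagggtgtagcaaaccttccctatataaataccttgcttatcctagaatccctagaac

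Immediate-early genes, which cells switch on within minutes of a stimulus, also leaned upward. Of 24 tested, 3 were higher and 0 lower, against 1.62% of all tested genes called higher. A positive difference was found for 23 of the 24, against 52.3% of all tested genes, with a median of 0.52. Fosb, an AP-1 subunit, stood at 11.1, 16.9 and 16.6 FPKM in CDP-cDC2 against 4.12, 6.51 and 4.34, a difference of 1.40 ± 0.22 (SE, adjusted p = 0.0071), and kept its call in each of the 12 fits without 1 library. Jund, another AP-1 subunit, stood at 21.1, 48.5 and 103 FPKM against 13.1, 13.3 and 9.51, a difference of 1.92 ± 0.47 (SE, adjusted p = 0.0499). Klf2, a zinc-finger factor of quiescent leukocytes, stood at 21.8, 38 and 77.1 FPKM against 12.9, 15.6 and 11.8, a difference of 1.52 ± 0.36 (SE, adjusted p = 0.047). For Jund and Klf2, CDP-cDC2 replicate 3 was far above replicates 1 and 2, and each gene kept its call in only 1 of the 12 fits without 1 library. Of the 24 genes, Fosb included, 0 were called without both replicates 3, where the median was 0.34, or with only the 2 compared groups in the fit. The count was 6 without CDP-cDC2 replicate 1 and 1 with any other single library left out.

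Chaperone genes leaned the other way. Of 25 tested heat shock and unfolded protein genes, 0 were higher and 3 lower, against 0.956% of all tested genes called lower, with a median of -0.41. Hspa8, the constitutive Hsc70 chaperone, stood at 610, 545 and 473 FPKM against 944, 975 and 927, a difference of -0.81 ± 0.13 (SE, adjusted p = 0.0071), and kept its call in each of the 12 fits without 1 library. Hsph1, a large cochaperone, stood at 5.83, 5.06 and 4.21 FPKM against 12.5, 10.6 and 7.42. Pdia5, a disulfide isomerase, stood at 4.92, 3.24 and 1.57 FPKM against 9.96, 7.69 and 8.02. All 3 genes had every CDP-cDC2 library below every M-cDC2 library. The count of lower members was 1 when CDP-cDC2 replicate 3, L-cDC2 replicate 3, M-cDC2 replicate 1 or M-cDC2 replicate 2 was left out, and 5 for CDP-cDC2 replicate 1 and for CLP-cDC2 replicate 3. With only the 2 compared groups in the fit it was 0, so Hspa8 was not called there.

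Calls in the cytokine list and in the Ccr7 maturation list were all upward. Of 20 tested costimulatory and coinhibitory genes, 0 were higher and 1 was lower, against 0.956% of all tested genes called lower. Of 19 tested cytokine and chemokine genes, 2 were higher and 0 lower, against 1.62% of all tested genes called higher. Il1b, the inflammatory cytokine interleukin-1 beta, stood at 207, 265 and 194 FPKM against 110, 138 and 131, a difference of 0.81 ± 0.14 (SE, adjusted p = 0.012), lost without M-cDC2 replicate 1 (adjusted p = 0.0554). Il1rn, which encodes its receptor antagonist, stood at 5.2, 4.11 and 4.03 FPKM against 2.43, 2.45 and 2.52, a difference of 0.65 (adjusted p = 0.0487) that was kept in only 1 of the 12 fits without 1 library. Neither gene had overlapping groups.

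Of 26 tested genes of the Ccr7 maturation programme, 3 were higher and 0 lower, with a median of 0.00, against the same 1.62% called higher. Ccr7 itself, the receptor that brings mature dendritic cells to T cell zones, stood at 37.9, 36.5 and 35.4 FPKM against 28.5, 25.9 and 32.1, a difference of 0.34 with an interval of 0.02 to 0.66 that was not called. Cd86, a costimulatory ligand, had a difference of -0.07 with an interval of -0.38 to 0.25. Ocstamp, a transmembrane protein of cell fusion in osteoclasts and macrophages (chromosome 2 from 165235680 to 165242325, as deposited), stood at 14.4, 9.76 and 8.67 FPKM against 2.98, 3.34 and 3.87, a difference of 1.42 ± 0.18 (SE, adjusted p = 0.0018), kept in each of the 12 fits without 1 library. It averaged 0.908 FPKM in CLP-cDC2 and 1.16 in L-cDC2. Marcks and Marcksl1, membrane-bound substrates of protein kinase C, had differences of 0.93 and 0.91, and neither was called when any 1 M-cDC2 library, CDP-cDC2 replicate 3, or L-cDC2 replicate 1 or 3 was left out.

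Housekeeping lists had medians below 0 that rested on the libraries numbered 3. Of 69 oxidative phosphorylation genes limma and voom called 0. Differences were below 0 for 65, with a median of -0.20, which became 0.02 without both replicates 3. An unadjusted limma p under 0.05 was found for 14 of the 69, against 2929 of all 14538 tested genes. Of 77 cytosolic ribosomal protein genes, Rpl26 alone was called, with a list median of -0.18 that became 0.00 without them. Of 38 cell cycle genes limma and voom called 0, and 36 had an interval within 1 log2 unit. An unadjusted limma p under 0.05 was found for 3 of the 38, against the same 2929 of 14538.

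**Figure D4:**
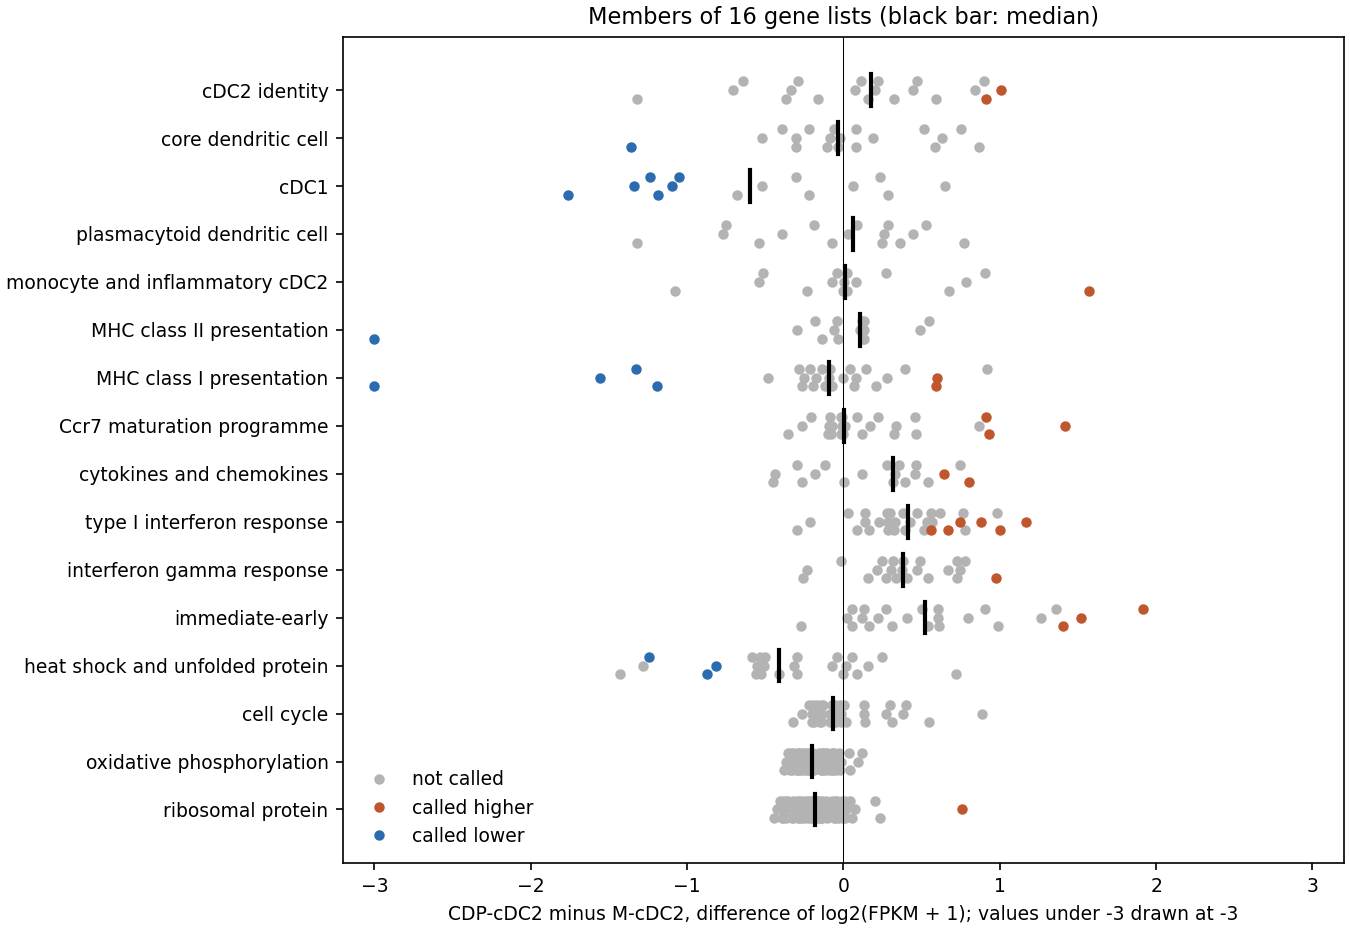
Difference between CDP-cDC2 and M-cDC2 in log2(FPKM + 1) for every tested member of 16 gene lists, 1 point a gene, with called genes in orange (higher) or blue (lower), the list median as a black bar and values under -3 drawn at -3. The cDC1 and heat shock medians lie left of 0, at -0.60 and -0.41, and the interferon and immediate-early medians right of it, at 0.41 and 0.52.

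The largest called increases were of mixed function, and most were largest in CDP-cDC2 replicate 3. Alyref, an mRNA export factor, stood at 17.5, 45 and 70.3 FPKM in CDP-cDC2 against 15.9, 7.77 and 4.95, a difference of 2.04 ± 0.49 (SE, adjusted p = 0.048). Arf6, a small GTPase of membrane traffic, stood at 50.7, 98 and 204 FPKM against 44.2, 25.3 and 12.1, a difference of 2.03 ± 0.48 (SE, adjusted p = 0.048). Each library pair of lowest CDP-cDC2 and highest M-cDC2 value lay close together in these 2 genes. Without both replicates 3 Alyref had 1.26 and Arf6 1.05, with adjusted p of 0.205 and 0.172. Otulin, a linear-ubiquitin deubiquitinase, Mtch1, a mitochondrial carrier homologue, and Lamp1, a lysosomal membrane glycoprotein, had differences of 1.83, 1.77 and 1.53 and were likewise not called without both.

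Ly6a and Adamdec1 had differences at least as large without both replicates 3, though neither was called there. Ly6a, the Sca-1 surface protein, stood at 54.8, 31.1 and 36 FPKM against 11.9, 12.4 and 13.7, a difference of 1.57 ± 0.28 (SE, adjusted p = 0.014), and 1.69 without both replicates 3 (adjusted p = 0.0652). Its call was lost without M-cDC2 replicate 1 or 2. Adamdec1, a secreted metalloprotease of macrophages and dendritic cells, stood at 6.87, 4.78 and 4.51 FPKM against 1.11, 0.449 and 0.734, a difference of 1.85 ± 0.31 (SE, adjusted p = 0.0096), and 1.95 without both replicates 3 (adjusted p = 0.0569). Its call was also lost when M-cDC2 replicate 2 was left out (adjusted p = 0.0572). Ythdf1, a reader of N6-methyladenosine in mRNA, stood at 8.12, 8.23 and 16.3 FPKM against 3.18, 3.66 and 2.07, a difference of 1.54 that fell to 1.05 without both replicates 3. Its call was kept there and in each of the 12 fits without 1 library, but not with only the 2 compared groups in the fit. The Mir7654 gene, with a difference of 1.84, lies inside Arglu1 on the same strand, so its reads cannot be assigned to the small RNA.

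The transfer and reporter systems also differ between CLP-cDC2 and L-cDC2, a comparison that shares no library with CDP-cDC2 against M-cDC2. CLP-cDC2 and L-cDC2 differed in 1542 genes (10.6%), 623 higher (4.29%) and 919 lower (6.32%). Of the 139 genes lower in CDP-cDC2 than in M-cDC2, 76 were also lower in CLP-cDC2 than in L-cDC2, which is 54.7% of the first list and 8.27% of the second. Of the 236 higher genes 30 were shared, which is 12.7% and 4.82%. Together 106 genes (0.729% of those tested) were called in the same direction in both comparisons and 17 in opposite directions. The groups enter one fit and share its estimate of spread. With 1 library left out, the shared count was 67 for CLP-cDC2 replicate 1, 62, 66 or 70 for L-cDC2 replicate 1, 2 or 3, and 58, 46 or 66 for M-cDC2 replicate 1, 2 or 3.

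Shared genes included those with the largest deficits. H2-Ea had -8.02 between the myeloid groups and -7.90 between the lymphoid ones, H2-Q2 -3.89 and -4.14, Hebp1 -3.35 and -3.73, and H2-Q1 -1.56 and -1.71. A second set was shared upward: Fosb had 1.40 and 1.16, Klf4 1.01 and 0.79, the histone gene H2bu2 1.32 and 1.88, the metallothionein gene Mt1 1.22 and 0.98, and Rpl26 0.76 and 1.01. Mmp9 was lower in both comparisons but by different amounts, with -1.97 and -3.37 (adjusted p of the difference 0.0041).

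**Figure D5:**
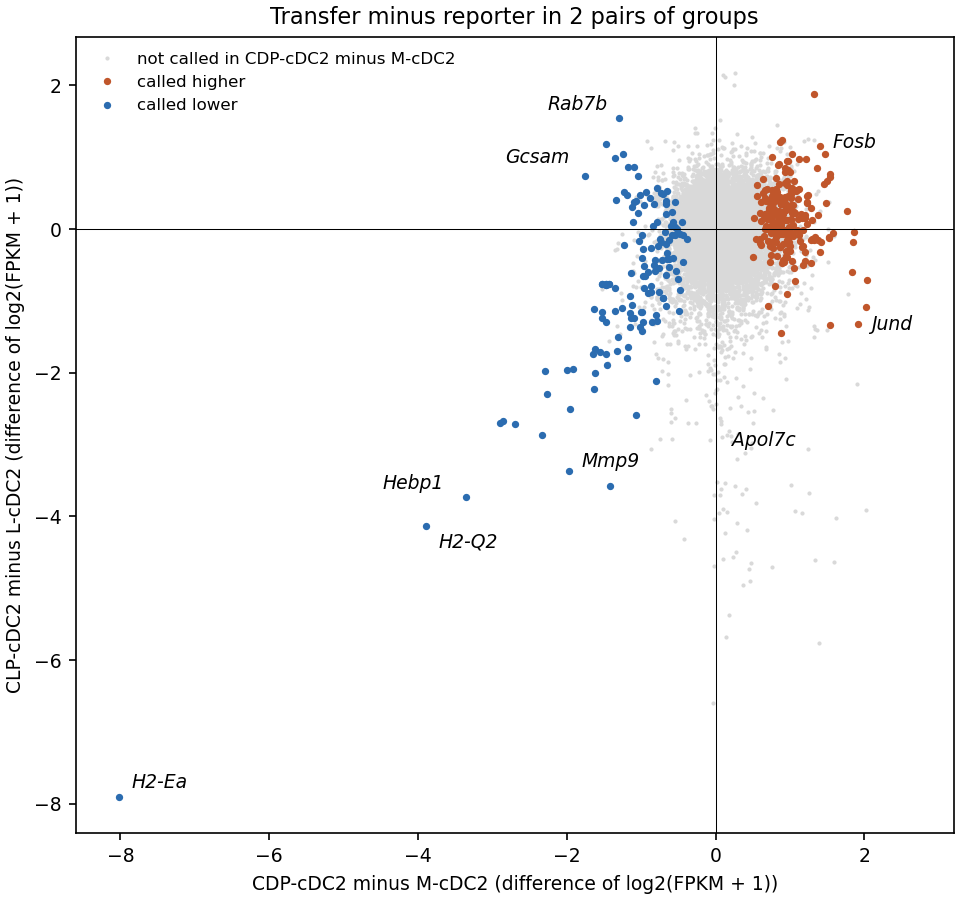
Difference in log2(FPKM + 1) between CDP-cDC2 and M-cDC2 (horizontal) and between CLP-cDC2 and L-cDC2 (vertical) for 14538 tested genes, with genes called in the first comparison in orange (higher) or blue (lower). H2-Ea, H2-Q2 and Hebp1 lie far down the diagonal, and Gcsam, Rab7b and Jund lie in the quadrants of opposite sign.

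The difference between the comparisons was tested for each gene, and 871 genes were called (5.99%), 525 positive (3.61%) and 346 negative (2.38%), of which 109 were also called between CDP-cDC2 and M-cDC2. The cDC1 list was prominent: of its 14 tested genes, 6 were lower in CDP-cDC2 than in M-cDC2 while 6 were higher and 0 lower in CLP-cDC2 than in L-cDC2, and 8 were called in the difference. Irf8 had -1.18 in the myeloid and 0.86 in the lymphoid comparison (adjusted p of the difference 0.0028), and Gcsam -1.76 and 0.74 (0.00088). Rab7b had -1.30 and 1.54 (0.00066), and Pdia5 -1.24 and 1.05 (0.0065). Among cDC2 genes, Cd4 had 0.47 and -1.79 (0.0055), Mgl2, a galactose-binding lectin, 0.16 and -2.13 (0.0037), and Cd209a, the DC-SIGN homologue, -0.65 and -2.17 (0.027). In the myeloid comparison 2 of the 20 cDC2 identity genes were called, and in the lymphoid comparison 3 were higher and 7 lower. Apol7c, an apolipoprotein L family gene, had 0.08 between CDP-cDC2 and M-cDC2 with an interval of -0.37 to 0.54, and -2.90 between CLP-cDC2 and L-cDC2 (adjusted p of the difference 0.00026). With 1 library left out, the count of 871 became 575 for CDP-cDC2 replicate 3, 515 or 430 for CLP-cDC2 replicate 1 or 2, 556, 312 or 443 for L-cDC2 replicate 1, 2 or 3, and 346 or 510 for M-cDC2 replicate 2 or 3.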

How the data were processed

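RNA was extracted with RNeasy micro columns and made into SMART-Seq HT and Nextera XT libraries, per the labels' protocols. The deposited table holds FPKM for 55322 genes, computed by the authors. Per the submitters' processing notes, with no role given, the tools were STAR 2.7.9a, featureCounts 2.0.1, DESeq2 1.20.0, cutadapt 3.7, Trimmomatic 0.39 and Trim Galore 0.6.7, and the builds GRCm38 and GRCh38. Annotation, filters and strand use are not given in the sources used here. Only 1462 of the 52046 identifiers in common with GENCODE M21 (GRCm38) had the deposited start, so coordinates are as deposited.

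Genes with at least 1 FPKM in at least 3 of 12 libraries were tested (14538, 10113 protein-coding). limma 3.58.1 in R 4.3.3 (lmFit and eBayes with trend, two-sided) fitted 4 group means to log2(FPKM + 1), with 8 residual degrees of freedom. The libraries of a group were treated as 3 independent samples. Depth was recovered by taking the most frequent low value as 1 read; 44.7 to 53.2% of values above 0 were whole reads (tolerance 0.001) and 100% were multiples of 0.01 read. Promoters were matched by symbol, and transcripts were aligned with blastn 2.17.0.

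The members and the 40 gene lists were chosen with earlier results of these data known. Named genes were the 12 largest called differences per direction (groups not overlapping, mean of the higher group at least 5 FPKM), up to 3 called members per list, the 5 largest per direction called in the difference between systems, 6 per direction called in both comparisons and 44 fixed genes. Predicted genes and pseudogenes with a ps suffix were left out of that rule. On simulated data with 200 changed genes, the CDP-cDC2 to M-cDC2 test (13998 genes) found 70% of 2-fold and 93% of 4-fold changes. It also called 15 unchanged genes. The test of the difference between systems (14027 genes) found 38% and 90% and called 10 unchanged genes. Changed genes were drawn from those with at least 200 expected reads, and noise was independent between libraries. Recovery for weaker genes or with an outlying library was not simulated. Alternatives were other pseudocounts, filters, scalings, weights and gene sets, a replicate block, 2 groups alone and libraries left out; removal of GC and length trends and voom on recovered reads were added after seeing the data.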

Additional observations from a re-analysis of the deposited data

Results flagged for a closer look

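The difference between CDP-cDC2 and M-cDC2 departed from that between CLP-cDC2 and L-cDC2 in 871 genes by limma's test of the difference itself (adjusted p under 0.05). Each value below is the first difference minus the second in log2(FPKM + 1), and each named gene passed that test. Among genes called higher in CDP-cDC2 than in M-cDC2 the values were 2.74 for Alyref, 3.12 for Arf6, 3.23 for Jund, 1.89 for Adamdec1, 2.02 for Mir7654, 2.42 for Otulin, 1.63 for Ly6a, 2.86 for Lamp1 and 1.64 for Siah2. They were 1.60 for Ocstamp, 1.37 for Marcksl1, 1.59 for Tlr7, 0.92 for Il1b, 1.79 for Pla2g7, 1.30 for Csf2rb2, 1.42 for Ifit1bl1 and 0.80 for Parp14 among further called higher genes. Among genes called lower the values were -2.50 for Gcsam, -2.67 for Ifi205, -1.96 for Ifi211, -1.74 for Cd8a, -1.75 for Xcr1, -2.85 for Rab7b, -1.24 for Fdps, -2.34 for Cd24a, -2.04 for Irf8, -2.29 for Pdia5 and -1.06 for Shmt2. For Mmp9 and H2-M2, lower in both comparisons and more so between CLP-cDC2 and L-cDC2, the values were 1.39 and 2.16. Among dendritic cell genes that were not called between CDP-cDC2 and M-cDC2 the values were 1.11 for Zbtb46, 1.45 for Itgax, 1.74 for Sirpa, 1.24 for Itgam, 1.53 for Cd209a, 1.57 for Clec10a, 2.29 for Mgl2, -1.53 for Clec12a and 2.26 for Cd4. For other genes not called there the values were -1.91 for Clec9a, 1.55 for Lyz2, -1.52 for Ccr2, 1.09 for Csf1r, 0.74 for Cd74, 1.26 for Ccr7 and 2.98 for Apol7c. The causes of these differences were not tested.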

How the results depend on the processing

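With all libraries, 236 genes were higher and 139 lower, 871 were called in the difference between systems and 106 were shared. With no filter on low values these were 40, 63, 255 and 46. Without both replicates 3 they were 38, 63, 462 and 61, and with array weights 1194, 828, 2044 and 329. The 2 groups alone gave 13, 34 and 29 shared. Quantile normalization gave 134 higher genes, protein-coding genes only 461, removal of GC and length trends 512 and voom 385. Quantile normalization moved the share of called genes that were higher from 62.9 to 50.4%; it was 38.8% with no filter. Leaving out 1 library gave 26 to 419 higher, 48 to 170 lower, 312 to 1238 in the difference, 46 to 113 shared and 74.3 to 83.3% of genes with an interval within 1 log2 unit. That share was 62.7% with a pseudocount of 0.1, 96.5% with a pseudocount of 5 and 62.4% with voom. With the replicate block, 94 genes were higher and 92 lower, and 477 were called in the difference. After group means were removed, same-numbered CDP-cDC2 and M-cDC2 libraries correlated at -0.371, -0.0162 and -0.435. With 3 libraries a group, these values cannot show whether the numbers pair samples. Of 64 named called genes, 46 lost their call without at least 1 library, 18 kept it in every such fit, and 0 changed sign in any setting. The causes were not tested. For H2-Ea, 3 reads correspond to 0.0673 FPKM in CDP-cDC2, below each of its values.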
